A study of Mus musculus with 23 samples.

Results

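The replication-dependent histone genes were taken as the protein-coding mouse genes of the GENCODE vM21 annotation whose symbols begin with Hist1h, Hist2h, Hist3h or Hist4h, 67 genes in all. Of these, 65 were listed in both experiments, among 43068 genes listed for the crush libraries and 22880 for the knockout libraries: 6 genes of linker histone H1, 18 of H2A, 16 of H2B, 12 of H3 and 13 of H4. Hist1h2bh and Hist1h2bm were not analysed here. On GRCm38, 54 of the 67 lie in the Hist1 cluster (chr13:21715763-23934851) and 10 in the Hist2 cluster (chr3:96219865-96270132), while the Hist3 locus on chromosome 11 holds 2 and Hist4h4 stands alone on chromosome 6.

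Core histones H2A, H2B, H3 and H4 form the protein spool around which DNA is wound, and H1 binds the linker DNA between spools. A cell that copies its genome needs new histones at the same time, and most of this demand is met by the clustered genes, whose mRNAs are made during S phase and removed when it ends. These mRNAs usually carry no poly(A) tail. Their 3′ end is a short stem-loop bound by the stem-loop binding protein Slbp, and transcription of the clusters depends on the coactivator Npat. Histones made outside S phase come from other genes with polyadenylated mRNAs, such as H3f3b or H1f0. Adult myelinating Schwann cells do not divide, and after nerve injury the distal stump holds dividing Schwann cells and many incoming macrophages.

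The data are 23 total RNA libraries of mouse sciatic nerve, all depleted of ribosomal RNA rather than selected for poly(A) tails, on a C57BL/6J background (C57bl6 in the labels). In the crush experiment, nerves of 2-month-old wild-type male mice were taken 3 days after crush at the sciatic notch (crushed, n = 4), from the uninjured other side of injured mice (contralateral, n = 4), or from uncrushed surgery controls (uncrushed, n = 3). The piece taken from crushed nerves ran from 1 to 8 mm distal to the injury. In the knockout experiment, Dicer iKO mice (n = 3) carried 2 floxed Dicer1 alleles and a transgene that gives a tamoxifen-inducible Cre in myelinating Schwann cells, and Dgcr8 iKO mice (n = 3) carried the transgene with 2 floxed Dgcr8 alleles. Dicer control and Dgcr8 control mice (n = 3 each) had the same floxed alleles without Cre. Mutants and controls all received tamoxifen at 8 to 10 weeks of age, were of either sex, and were sampled 3 months after induction. Other cells of the nerve keep both genes, and the study states that mutant animals of these lines were preselected on morphology.

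Total counts ran from 6617600 to 12805921 per crush library and from 5594838 to 10143207 per knockout library, and the labels name different library kits for the experiments, where the study's methods name 1, so levels are compared only within each. Libraries of 1 group differed by more than counting noise in all 27 pairs (chi-square per degree of freedom 4.36 to 42.4). The Schwann cell marker Prx was abundant in uninjured nerves (3424 ± 159 CPM, counts scaled to the size of the library, SD, n = 3 uncrushed libraries). By total count, Dicer1 was at 86.0 to 86.4 CPM in Dicer controls and 81.9 to 85.1 in Dicer iKO, and Dgcr8 was at 33.0 to 40.8 CPM in Dgcr8 controls and 40.9 to 55.8 in Dgcr8 iKO. Counts of a whole gene do not resolve the floxed exons, so these values do not check the deletion.

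The stem-loop that marks these mRNAs was read from the annotated transcripts. The histone stem-loop consensus, searched by its fixed bases over 16 positions on the sense strand, was present in a transcript of 44 of the 67 genes (65.7%) and in 7 of 21884 other protein-coding genes (0.032%). Where an annotated transcript stops before the stem-loop, this search finds no match, so a gene without one is not shown to lack the element. The stem of H4 genes differed from that of the other classes: 10 H4 genes held a GGCCCT stem, and the genes of the other classes that matched held GGCTCT. The most frequent forms, shown with the 6 bases of each stem arm in capitals, the loop in lower case and T for U, were the following, found in 26 genes of H1, H2A, H2B and H3, in 6 genes of H1, H2B and H3, and in 7 H4 genes in turn.
common form: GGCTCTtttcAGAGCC
loop ending in a: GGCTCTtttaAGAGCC
H4 form: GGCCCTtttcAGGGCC

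The same element follows in its surroundings for 5 genes that the results turn on, with all 16 bases of the stem-loop in capitals. Hist1h3b, Hist1h3g and Hist1h2bk rose in every injury and knockout comparison, and Hist3h2a and Hist4h4 were called in none. Both of the latter carried the usual stem of their class.
Hist1h3b (chr13:23752820-23752835, + strand): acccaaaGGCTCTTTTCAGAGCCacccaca
Hist1h3g (chr13:23535889-23535904, + strand): ctttaaaGGCTCTTCTTAGAGCCacccatc
Hist1h2bk (chr13:22036300-22036315, + strand): caccaaaGGCTCTTTTAAGAGCCactaaac
Hist3h2a (chr11:58955172-58955187, + strand): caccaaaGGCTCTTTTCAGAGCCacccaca
Hist4h4 (chr6:136803998-136804013, - strand): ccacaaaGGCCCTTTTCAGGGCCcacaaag

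What followed the stem-loop differed. The annotated Hist1h3b, Hist1h3g and Hist1h2bk transcripts ended 51, 47 and 30 bases after it, whereas those of Hist3h2a and Hist4h4 ran on for 1643 and 2445 bases. Among the 65 genes, 26 had a stem-loop with the transcript ending within 200 bases of it, 16 had a transcript that ran on further, and 23 had no match. The lengths of these annotated transcripts need not be those of the annotation release behind the deposited counts, which is not given in the sources used here.

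Promoters, 250 bases before to 50 bases after the start (RefSeq, GRCm38.p6), were matched for 62 of the 67 genes, and 3 motifs were searched on both strands. CCAAT, the site of the factor NF-Y, was in 53 (85.5%), against 37.4% of all 32851 promoters. It was in all 50 promoters of H1, H2A, H2B and H3 genes, but in 3 of 12 of H4 genes. TATAAA was in 35 (56.5%, against 13.6%), and the octamer ATTTGCAT, the site of Oct1, was in 13 (21.0%, against 1.74%), of which 7 were H2A and 6 were H2B genes. Several H2A and H2B genes stand head to head and share an octamer between their starts. A window from each of the promoters of Hist1h2bk and Hist1h2bg is shown with the octamer in capitals, as examples of this arrangement.
Hist1h2bk and Hist1h2ah (chr13:22035783-22035806): ttcactttATTTGCATacgaagtt
Hist1h2bg and Hist1h2ae (chr13:23571333-23571356): agtcccttATTTGCATagaacctc

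In uninjured nerves, histone mRNA came from few of these genes. Per length, the highest levels in uncrushed nerves were those of the near-identical H2A genes Hist2h2aa1 and Hist2h2aa2 (10.9 ± 3.70 and 10.3 ± 3.57 TPM, a level corrected for transcript length and library size, SD, n = 3) and of the H2B gene Hist1h2bc (9.14 ± 2.78), which did not differ beyond their spread, followed by the linker histone gene Hist1h1e (6.12 ± 1.80). Hist1h2bc, Hist2h2aa1, Hist2h2aa2, Hist1h1e and Hist1h1c together made up 60.5% of the summed CPM of the 65 genes, a share not corrected for gene length. H3 genes made up 2.16% to 2.82%. In crushed nerves the order was different: Hist2h2aa1 (63.0 ± 20.9 TPM, n = 4) was followed by Hist1h2ai (38.1 ± 12.6), Hist1h1e (35.0 ± 7.72) and Hist1h2ap (33.6 ± 6.90). TPM values of the crush libraries are held down by 1 ribosomal 5S RNA gene, n-R5s193, which took 61.4% to 71.8% of each library's TPM, so they are used here to order genes within a group, and between groups only as an alternative to summed CPM.

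**Figure D1:**
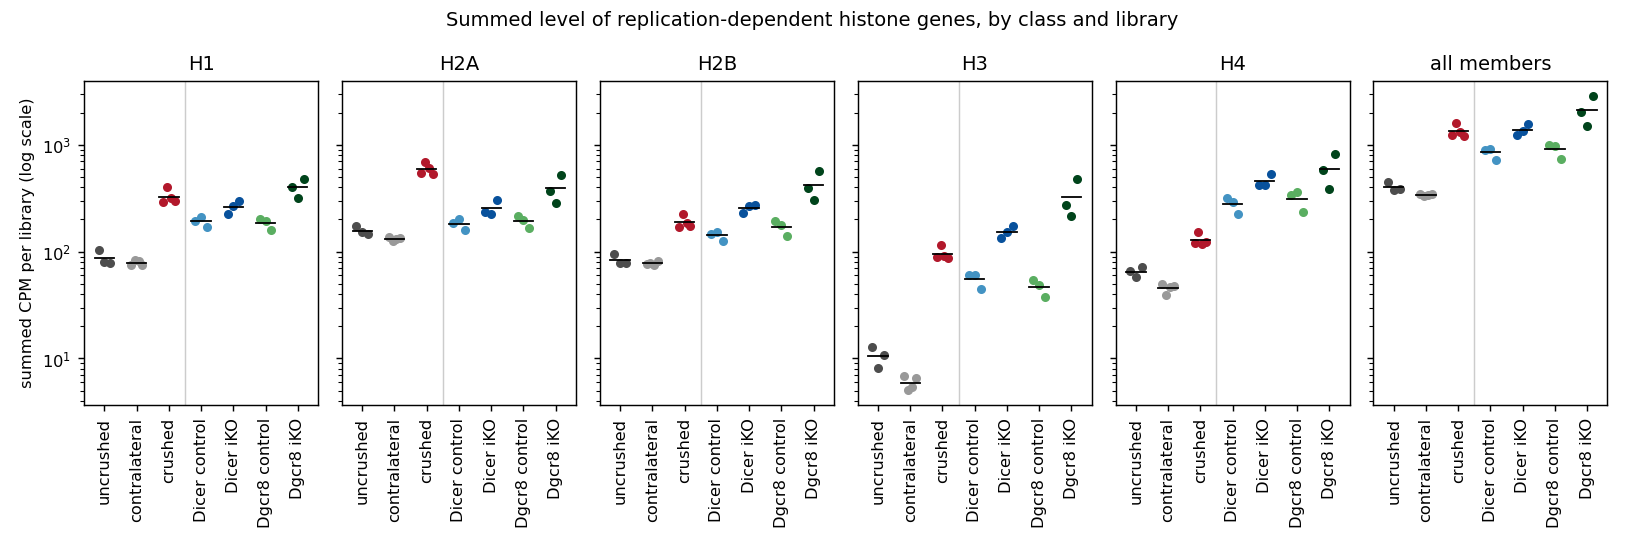
Each point is the summed CPM (log axis) of the genes of 1 histone class, or of all 65, in 1 library, and the bar is the group mean. The grey line separates the crush experiment from the knockout experiment, which are not comparable in level. Crushed libraries (1211 to 1587 CPM over all genes) lay above all uncrushed and contralateral ones, and iKO libraries above their controls, in every class.

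Crush raised most replication-dependent histone genes, in all 5 classes. The summed level of the 65 genes was 1226, 1587, 1317 and 1211 CPM in the 4 crushed libraries, 450.1, 376 and 386 CPM in the 3 uncrushed ones, and 344, 332, 339.6 and 347 CPM in the 4 contralateral ones. No crushed library overlapped either set of uninjured nerves, and crushed 2 was the highest of its group. The fitted log2 fold change of the sum was 1.83 ± 0.13 (standard error, SE) against uncrushed and 1.99 ± 0.09 against contralateral nerves. With summed TPM in place of CPM it was 3.00 and 2.65.

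H3 genes had the highest summed fold change of the 5 classes. Their summed level was 89.2, 115.5, 90.6 and 87.8 CPM in crushed, 12.7, 8.13 and 10.7 CPM in uncrushed, and 6.79, 5.03, 5.42 and 6.56 CPM in contralateral libraries, a fitted fold of 9.67 relative to uncrushed nerves and of 16.3 relative to the contralateral side. The other classes rose less: against uncrushed nerves the fold was 4.04 for H1, 4.05 for H2A, 2.41 for H2B and 2.13 for H4, and against contralateral nerves 4.195, 4.54, 2.47 and 2.84. The share of H3 in the summed CPM rose from at most 2.82% in uninjured libraries to between 6.88% and 7.28% in crushed ones. These class values are given without a test. In bulk tissue, more cells that express a gene and more RNA per cell cannot be told apart.

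Gene by gene, 49 of the 57 tested were called higher against uncrushed nerves (edgeR quasi-likelihood test, at least 2-fold and Benjamini-Hochberg adjusted p of at most 0.05 over all genes tested), where 15.3% of all genes tested were called higher, and 0 were called lower, against 21.1% of all genes. Unadjusted, 54 of the 57 had p under 0.05 by the same test. The share of all genes under that limit was not computed, here or for the comparisons below. Against contralateral nerves 51 of 58 were called higher and 1 lower, where 14.6% and 13.6% of all genes were. Both comparisons use the same crushed libraries. The median log2 fold change over the histone genes tested was 3.17 in the first comparison and 3.81 in the second, and over all genes tested -0.03 and -0.06. In 51 of the 57 every crushed library was above every uncrushed one (29.8% of all genes), and in 53 of the 58 above every contralateral one (30.3%). A gene with almost no reads in uninjured nerves passes the filter on counts only if it is high in the crushed ones. Of the 34 genes with a mean of at least 10 counts in uncrushed libraries, 33 were tested and 25 called higher, and of the 27 with such a mean in contralateral libraries 20 were called higher and 1 lower. The median log2 fold change over the genes with such a mean was 2.27 against uncrushed and 1.85 against contralateral nerves. Untested were 8 and 7 genes: Hist1h1t, Hist1h2aa, Hist1h2ad, Hist1h2ao, Hist1h2ba, Hist1h2bq and Hist2h3c1 in both, and Hist3h2ba against uncrushed nerves.

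**Figure D2:**
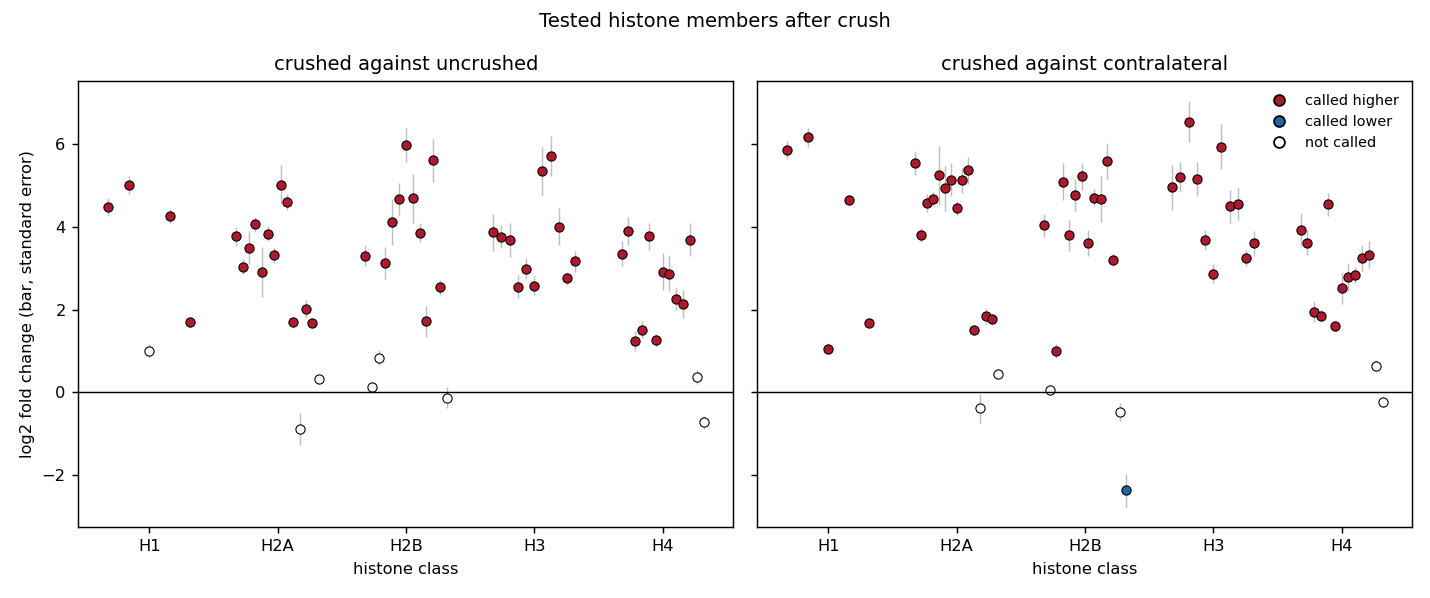
Log2 fold change of each tested gene, grouped by histone class, for crushed against uncrushed (left) and crushed against contralateral nerves (right). Bars are standard errors, filled points were called, and Hist1h2ah is left out on the left because it had 0 counts in every uncrushed library. All 11 tested H3 genes are filled in both panels, while the open points near 0 include Hist1h2bc, Hist2h2be, Hist2h4 and Hist4h4.

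Among H3 genes, which encode the core histone that carries many regulatory modifications, all 11 tested were called higher in both comparisons. Those with few counts in uninjured nerves were tested only because they were high in crushed ones, so this count is partly set by the filter. In contralateral libraries Hist1h3c had 0, 1, 0 and 1 counts, and Hist1h3g had 0, 0, 2 and 0. Hist1h3b was at 14.8, 19.8, 16.1 and 15.8 CPM in crushed libraries against 2.07, 0.75 and 0.682 CPM in uncrushed and 0.377, 0.157, 1.30 and 0 CPM in contralateral ones. Its log2 fold change was 3.77 ± 0.27 (adjusted p = 1.69e-07) and 5.21 ± 0.36 (adjusted p = 1.07e-08). Hist1h3c gave the highest value of the 58 histone genes tested against contralateral nerves, 6.55 ± 0.49 (adjusted p = 2.72e-08), from 3.69, 7.58, 5.96 and 4.24 CPM against 0, 0.0785, 0 and 0.103 CPM. No crushed library overlapped an uninjured one for either gene. Among H3 genes Hist1h3g followed at 5.95 ± 0.55 (adjusted p = 2.69e-07), and the lowest H3 value in this comparison was that of Hist1h3f, 2.87 ± 0.23 (adjusted p = 5.54e-08). Against uncrushed nerves Hist1h3h had the highest H3 value (5.72 ± 0.48, adjusted p = 6.53e-07), but only 8.01% of the 100-base windows of its transcript occur in no other annotated transcript.

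Among H2A genes, 13 of 15 tested were called higher in both comparisons. Hist1h2ap, an H2A gene that was low in uninjured nerves, was at 67.6, 82.7, 71.2 and 65.4 CPM in crushed libraries against 4.405, 2.25 and 2.22 CPM in uncrushed and 3.96, 1.73, 1.10 and 0 CPM in contralateral ones (log2 fold change 4.61 ± 0.20, adjusted p = 1.68e-09, and 5.37 ± 0.33, adjusted p = 3.51e-09). Only 7.83% of the windows of its transcript occur in no other annotated transcript, so these values depend on how shared reads were divided. In contralateral 4, where Hist1h2ap was at 0, Hist1h2ao, which shares sequence with it, was at 3.08 CPM. Hist1h2ao was at 0 in all other crush libraries. Hist1h2ah had 0 counts in all 3 uncrushed libraries and 10.4, 21.99, 7.24 and 12.2 CPM in crushed ones, at least 33.6-fold higher when 3 counts per library are taken as the limit for a gene at 0. In contralateral libraries it was at 1.23, 0.393, 0 and 0 CPM. With 12.1% of its windows unique, its level of 0 and this limit depend on how shared reads were divided. Hist2h2ac, already abundant at 15.8 to 18.3 CPM in uncrushed nerves, rose to between 43.2 and 58.9 CPM (log2 fold change 1.69 ± 0.12, adjusted p = 1.19e-07).

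Among H2B genes, 10 of 13 tested were called higher against uncrushed and 11 of 14 against contralateral nerves. Hist1h2bk, head to head with Hist1h2ah across the octamer shown above, was at 12.4, 14.7, 11.1 and 11.9 CPM in crushed against 0.449, 0 and 0 CPM in uncrushed libraries (log2 fold change 5.99 ± 0.42, adjusted p = 1.19e-07). Hist2h2bb was at 36.3, 49.6, 38.2 and 37.4 CPM against 9.44, 5.63 and 6.65 CPM (2.54 ± 0.18, adjusted p = 1.17e-07). Hist1h2be lay near the 2-fold limit: its log2 fold change was 0.84 ± 0.18 (adjusted p = 0.00129) against uncrushed nerves and 1.003 ± 0.17 (adjusted p = 0.000139) against contralateral ones, called only in the second. Without any 1 of crushed 1, crushed 2, crushed 4 or contralateral 4 the second call was lost, at 0.88 to 0.99.

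Of 13 H4 genes, 11 were called higher in each comparison. The lowest called values against uncrushed nerves were H4 values. Hist1h4d was at 24.6, 34.1, 25.9 and 26.02 CPM in crushed against 14.1, 8.76 and 6.99 CPM in uncrushed libraries (log2 fold change 1.52 ± 0.21, adjusted p = 4.03e-05), Hist1h4h gave 1.27 ± 0.16 (adjusted p = 1.85e-05) and Hist1h4c gave 1.25 ± 0.24 (adjusted p = 0.000697). Other H4 genes rose further, Hist1h4n by 3.69 ± 0.39 (adjusted p = 5.29e-06) and Hist1h4j by 2.88 ± 0.43 (adjusted p = 9.43e-05). Even Hist1h4c, the lowest of them, did not overlap (6.05 to 8.47 CPM in crushed against 2.13 to 4.23 CPM in uncrushed libraries).

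Linker histone H1 changed in composition as well as amount. Hist1h1c and Hist1h1e, both widely expressed subtypes, supplied 38.7% to 47.3% and 45.5% to 55.8% of the H1 counts of the 7 uninjured libraries. In the 4 crushed libraries Hist1h1c fell to 20.7% to 23.6%, while Hist1h1d, Hist1h1b and Hist1h1a, each at most 3.68% before, reached 15.3% to 17.3%, 13.2% to 14.7% and 7.61% to 8.44%. Hist1h1b was at 40.4, 57.7, 46.7 and 38.9 CPM in crushed, 2.07, 1.13 and 1.02 CPM in uncrushed and 0.943, 0.314, 0.301 and 1.03 CPM in contralateral libraries. Its log2 fold change was 5.01 ± 0.22 (adjusted p = 2.57e-09) and 6.18 ± 0.23 (adjusted p = 1.45e-11), and all of its transcript's 100-base windows (100%) occur in no other annotated transcript. Hist1h1e rose by 1.70 ± 0.12 (adjusted p = 1.24e-07), and Hist1h1c lay at the limit, 0.998 ± 0.17 (adjusted p = 0.000279, not called) against uncrushed and 1.06 ± 0.13 (adjusted p = 7.22e-06, called) against contralateral nerves. The first became a call without uncrushed 1 (1.25), crushed 1, 3 or 4, and the second lost its call without crushed 2 (0.87) or contralateral 1 (0.98). Hist1h1t, the testis subtype, was at most 1.08% of H1 counts in any crush library.

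**Figure D3:**
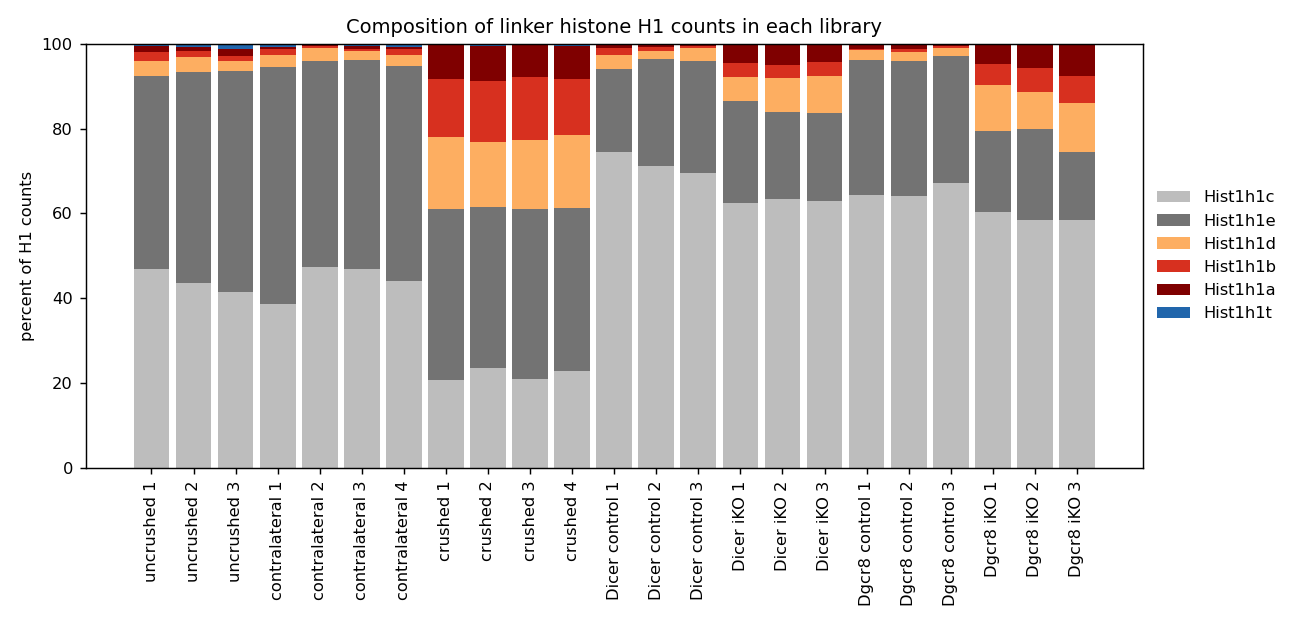
Share of the H1 counts of each library, in percent, that came from each of the 6 H1 genes. Hist1h1d, Hist1h1b and Hist1h1a (warm colours) widen in all 4 crushed libraries and in all 6 iKO libraries, where Hist1h1c still made up 58.4% to 63.4% of the counts.

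Some genes that carry the same names were not called. Tested in both comparisons with crushed nerves and called in neither were 6: Hist1h2bc, Hist2h2be, Hist3h2a, Hist4h4, Hist2h4 and Hist2h2aa2. Hist1h2bc, the most abundant H2B gene, was at 50.6, 77.1, 61.2 and 63.0 CPM in crushed, 69.7, 57.9 and 58.1 CPM in uncrushed and 57.6, 62.6, 56.9 and 65.4 CPM in contralateral libraries. All 3 groups overlapped, and its log2 fold change was 0.12 ± 0.13 (adjusted p = 0.437) and 0.07 ± 0.11 (adjusted p = 0.583). Hist4h4 was at 16.5, 18.7, 15.95 and 17.9 CPM in crushed against 21.9, 31.8 and 39.4 CPM in uncrushed libraries, with no overlap (-0.72 ± 0.16, adjusted p = 0.00168), a change under the 2-fold limit, and against contralateral nerves it gave -0.22 ± 0.13 (adjusted p = 0.16). The values of Hist3h2a (0.31 ± 0.11 and 0.45 ± 0.10, adjusted p = 0.0293 and 0.00107), Hist2h4 (0.37 ± 0.18 and 0.63 ± 0.14, adjusted p = 0.0838 and 0.00126) and Hist2h2be (-0.13 ± 0.26 and -0.48 ± 0.22, adjusted p = 0.668 and 0.066) all stayed under the 2-fold limit. Without Hist2h2aa2, these 5 genes summed to 91.9 to 126 CPM in crushed and 95.7 to 121 CPM in uninjured libraries, so their share of all histone CPM fell from between 25.9% and 32.3% to between 7.49% and 8.97%.

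Hist2h2aa2 has to be read together with Hist2h2aa1, because every 100-base window of its transcript also occurs in another transcript, Hist2h2aa1 included. Hist2h2aa1 rose (log2 fold change 1.70 ± 0.13, adjusted p = 3.1e-07), while Hist2h2aa2 gave -0.88 ± 0.39 (adjusted p = 0.0629), and without crushed 1 it was called lower at -1.54. The sum of both was 180, 215, 207.6 and 168 CPM in crushed libraries against 109.6, 99.4 and 95.9 CPM in uncrushed ones. The split between the copies is uncertain, and their sum was higher in every crushed library.

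Called lower was 1 gene. Hist3h2ba, an H2B gene beside Hist3h2a on chromosome 11, was at 0.401, 0.407, 0.0917 and 0.189 CPM in crushed against 1.23, 1.65, 1.40 and 1.74 CPM in contralateral libraries (log2 fold change -2.37 ± 0.39, adjusted p = 8.86e-05), with no overlap. In uncrushed libraries it was at 1.71, 1.501 and 0.682 CPM and was too low to be tested. These are low counts, 5 in the highest crushed library.

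Grouped by what follows the stem-loop, the genes with extended transcripts had the lowest median. Against uncrushed nerves the median log2 fold change was 3.59 over the 22 tested genes whose transcript ends near the stem-loop (21 called higher), 1.70 over the 15 whose transcript runs on (10 called) and 3.89 over the 20 with no match (18 called). Against contralateral nerves the medians were 4.58, 1.96 and 4.48. By locus, 43 of 46 tested Hist1 genes were called higher against uncrushed nerves, 6 of 9 Hist2 genes and neither the 1 Hist3 gene nor Hist4h4. These groupings were chosen after the values were seen and carry no test. The label of no match describes the annotated transcript and is not shown to be a trait of the mRNA.

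The 2 kinds of uninjured nerve were also compared. Between contralateral and uncrushed nerves 0 of 32 tested genes were called in either direction by edgeR's quasi-likelihood test, where 0% of all genes were called, and 9 had an unadjusted p under 0.05. The edgeR exact test called 2 lower and DESeq2 called 0, both given without the share of all genes. The median log2 fold change was -0.57, against -0.02 over all genes tested, and 6 of the 32 were lower in every contralateral than in every uncrushed library (8.81% of all genes), and 0 were higher in every one (6.87%). The summed level over the 65 genes was also lower in every contralateral library (log2 fold change -0.26 ± 0.10), and without uncrushed 1, the highest of its group, it was -0.14. Summed TPM gave the opposite direction, 0.35.

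The Dicer iKO comparison sets nerves of mice with induced deletion of Dicer1 in adult Schwann cells, without crush, against those of Cre-negative controls. Mutants of both lines were preselected on morphology, so the deletion and the selected morphology cannot be told apart in either knockout comparison. Histone mRNA was higher in Dicer iKO nerves. The summed level was 1247, 1333 and 1577 CPM in Dicer iKO and 903.5, 919 and 726 CPM in Dicer control libraries, a log2 fold change of 0.71 ± 0.15. H3 genes again moved most, from 60.9, 61.1 and 44.6 CPM to 134, 153 and 173 CPM (2.77-fold), and the other classes by 1.38-fold (H1), 1.40-fold (H2A), 1.82-fold (H2B) and 1.65-fold (H4). In each class every iKO library was above every control.

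By edgeR's quasi-likelihood test, 36 of 58 tested genes were called higher in Dicer iKO and 1 lower, where 7.37% and 1.64% of all genes were, and 47 had an unadjusted p under 0.05. The count changed with single libraries: 21 were called higher without Dicer iKO 3 and 22 without Dicer iKO 2. The share of all genes called in these fits is not given, so the drop is not shown to be particular to histone genes. With any 1 library left out, the summed log2 fold change ran from 0.61 to 0.79. The median log2 fold change was 1.78 (all genes, -0.01). Among the 43 genes with a mean of at least 10 counts in control libraries, 22 were called higher and 1 lower, with a median log2 fold change of 1.05. By class, 3 of 5 tested H1 genes were called higher, 10 of 15 H2A, 10 of 13 H2B, 8 of 12 H3 and 5 of 13 H4 genes.

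Hist1h3g gave the highest value, from 0.431, 0.529 and 0.676 CPM in controls to 6.39, 6.56 and 4.71 CPM in Dicer iKO (log2 fold change 3.39 ± 0.35, adjusted p = 0.00214), followed by Hist1h2ae (3.16 ± 0.70, adjusted p = 0.0196) and Hist1h1a (3.14 ± 0.30, adjusted p = 0.00185). Hist1h2ae was not called without Dicer iKO 2, Dicer iKO 3 or Dicer control 2. Hist1h1a, a linker histone gene, was at 9.72, 13.1 and 12.6 CPM against 1.72, 1.45 and 0.811 CPM, with no overlap. Hist1h3b was at 13.04, 16.9 and 15.5 CPM against 3.02, 2.38 and 1.62 CPM (2.69 ± 0.26, adjusted p = 0.00182). Several genes abundant in control nerves were not called: Hist1h1c gave 0.27 ± 0.14 (adjusted p = 0.197), Hist1h1e 0.33 ± 0.14 (adjusted p = 0.137), Hist1h4c 0.47 ± 0.18 (adjusted p = 0.112) and Hist1h2bc 0.43 ± 0.13 (adjusted p = 0.0483, under 2-fold). Hist3h2ba was lower, at 2.53, 3.97 and 2.35 CPM against 6.32, 6.61 and 8.38 CPM (-1.28 ± 0.29, adjusted p = 0.0198), a call lost without Dicer iKO 3 or Dicer control 2.

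**Figure D4:**
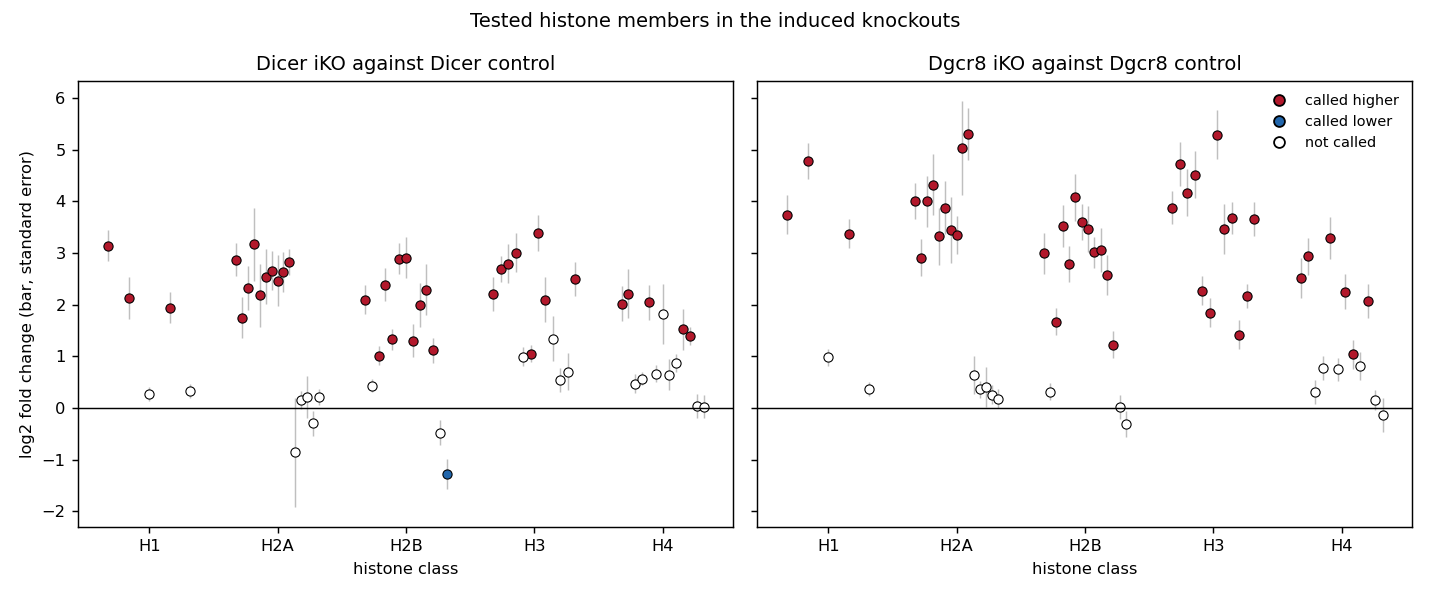
Log2 fold change of each tested gene, grouped by histone class, for Dicer iKO (left) and Dgcr8 iKO (right) against their own controls. Bars are standard errors, filled points were called, and Hist1h2ah is left out on the right because it had 0 counts in every Dgcr8 control library. All 12 H3 genes are filled on the right and 8 of 12 on the left.

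In Dgcr8 iKO nerves, where the deleted gene encodes the microprocessor subunit that acts before Dicer, most replication-dependent histone genes were called higher too. The summed level was 2029.5, 1507 and 2878 CPM in Dgcr8 iKO and 1007, 982 and 736 CPM in Dgcr8 control libraries (log2 fold change 1.24 ± 0.25), so all iKO libraries were above all controls and Dgcr8 iKO 3 was the highest of the 12 knockout and control libraries. Without it the value was 0.96. H3 genes went from 54.7, 48.6 and 37.3 CPM to 273, 215 and 481 CPM, a 6.90-fold rise, beside 2.18-fold for H1, 2.05-fold for H2A, 2.48-fold for H2B and 1.91-fold for H4.

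Of 59 genes tested, 43 were called higher and 0 lower by edgeR's quasi-likelihood test, where 13.4% and 6.99% of all genes were, and 48 had an unadjusted p under 0.05. The median log2 fold change was 2.94 (all genes, -0.01). Among the 47 genes with a mean of at least 10 counts in control libraries 31 were called higher, with a median log2 fold change of 2.25. All 12 H3 genes were called higher, with 3 of 5 H1, 11 of 16 H2A, 11 of 14 H2B and 6 of 12 H4 genes.

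The H2A gene Hist1h2ap rose from 0, 1.77 and 1.35 CPM to 36.0, 28.5 and 58.3 CPM (log2 fold change 5.30 ± 0.50, adjusted p = 1.63e-05). With 7.83% of its windows unique, its level of 0 and its fold change depend on how shared reads were divided. In Dgcr8 control 1, where Hist1h2ap was at 0, Hist1h2ao, which shares sequence with it, was at 1.06 CPM. Hist1h2ao was at 0 in all other libraries of the Dgcr8 line. Hist1h3g rose from 0.354, 0.544 and 0.207 CPM to 11.3, 9.73 and 22.4 CPM (5.29 ± 0.48, adjusted p = 1.29e-05), and Hist1h1b from 0.708, 1.36 and 0.518 CPM to 20.4, 17.7 and 31.7 CPM (4.78 ± 0.35, adjusted p = 4.07e-06). Hist1h2ah, at 0 counts in all 3 controls, was at 4.84, 3.62 and 8.63 CPM in iKO, at least 15.9-fold higher. With 12.1% of its windows unique, this limit too depends on how shared reads were divided. In each of these genes the iKO libraries were far above the controls. The lowest called values were those of Hist1h4j (1.04 ± 0.28, adjusted p = 0.0107) and Hist2h2bb (1.23 ± 0.26, adjusted p = 0.00309), and both lost the call without Dgcr8 iKO 3 (0.74 and 0.85). Hist1h4j also lost it without Dgcr8 iKO 1 (0.99) or Dgcr8 control 3 (0.92). Hist1h2bc (0.32 ± 0.16, adjusted p = 0.134), Hist1h1e (0.37 ± 0.14, adjusted p = 0.0527), Hist4h4 (-0.13 ± 0.33, adjusted p = 0.769) and Hist3h2a (0.18 ± 0.19, adjusted p = 0.459) were not called. Hist3h2ba was at 9.32, 6.29 and 9.91 CPM against 13.6, 8.98 and 8.91 CPM, overlapping its controls.

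The difference between the knockouts was tested directly as the Dgcr8 iKO effect minus the Dicer iKO effect. It was above 0 for 54 of 60 genes tested, with a median of 0.89 on the log2 scale, where the median over all genes was -0.005. The 60 include Hist1h4m, whose difference cannot be estimated because it had 0 counts in all libraries of the Dgcr8 line. By edgeR's quasi-likelihood test 0 of 60 passed an adjusted p of 0.05 (0.00738% of all genes in each direction). Unadjusted, 16 had p under 0.05, a limit for which the share of all genes was not computed. Hist1h1b had the lowest p (difference 2.65 ± 0.60, adjusted p = 0.141), and the difference was above 0 for all 12 H3 genes. Without Dicer control 3 the count passing the adjusted limit was 4, given without the share of all genes.

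H1 composition also differed between knockout and control nerves. Hist1h1c supplied 69.5% to 74.6% of H1 counts in Dicer controls and 62.5% to 63.4% in Dicer iKO, and 64.2% to 67.2% in Dgcr8 controls and 58.4% to 60.3% in Dgcr8 iKO. Hist1h1a, Hist1h1b and Hist1h1d had a larger share in every iKO library than in any control of its line, Hist1h1d going from at most 3.29% to between 5.69% and 11.5%. The share of Hist1h1e was lower in Dgcr8 iKO, going from between 29.9% and 31.8% to between 16.1% and 21.4%.

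Lists of related genes were read beside the histone genes. Of 35 DNA replication genes, which act in the same phase of the cycle, 30 were called higher in both comparisons with crushed nerves, where 15.3% and 14.6% of all genes were, with medians of 2.05 and 1.85, beside 2 of 35 in Dicer iKO, where 7.37% of all genes were called higher, and 10 of 35 in Dgcr8 iKO, where 13.4% were. Mcm2, a subunit of the replicative helicase, gave 3.50 ± 0.16 (adjusted p = 2.47e-09) against uncrushed nerves, 0.60 ± 0.23 (adjusted p = 0.102) in Dicer iKO and 1.64 ± 0.20 (adjusted p = 7.72e-05) in Dgcr8 iKO. Pcna, the sliding clamp, gave 1.70 ± 0.12 (adjusted p = 9.81e-08), 0.10 ± 0.10 (adjusted p = 0.487) and 0.26 ± 0.13 (adjusted p = 0.143). Mitosis genes, expressed after S phase, were called higher in 20 of 20 tested in both crush comparisons, 14 of 18 in Dicer iKO and 19 of 20 in Dgcr8 iKO. The proliferation marker Mki67 went from 21.3 ± 1.93 to 568 ± 115 CPM after crush (SD, n = 3 and 4), from 6.05 ± 3.03 to 41.5 ± 6.50 CPM in Dicer iKO and from 5.72 ± 1.13 to 116 ± 28.2 CPM in Dgcr8 iKO (n = 3 each).

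The machinery that makes histone mRNA was read in the same way. Of 18 genes of histone transcription and processing, 4 were called higher in each crush comparison (15.3% and 14.6% of all genes) and 0 of 17 in either knockout (7.37% and 13.4% of all genes). Slbp was at 27.5 ± 2.36 CPM in crushed, 15.6 ± 2.09 in uncrushed and 13.6 ± 1.11 in contralateral nerves (log2 fold change 0.91 ± 0.12, adjusted p = 3.57e-05, and 1.03 ± 0.10, adjusted p = 3.93e-07), 0.59 ± 0.22 (adjusted p = 0.0949) in Dicer iKO and 0.98 ± 0.16 (adjusted p = 0.000484) in Dgcr8 iKO. Npat, the coactivator of the clusters, gave 0.75 ± 0.14 (adjusted p = 0.000435) against uncrushed nerves and -0.07 ± 0.14 (adjusted p = 0.756) and 0.21 ± 0.14 (adjusted p = 0.242) in the knockouts. Among chaperones, which carry new histones to DNA, 7 of 18 and 5 of 18 were called higher after crush, 0 of 17 in Dicer iKO and 2 of 18 in Dgcr8 iKO, to be read against the same shares of all genes.

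Of 11 replication-independent variants, histone genes outside the clusters, 4 were called higher in each crush comparison (15.3% and 14.6% of all genes), 1 of 10 in Dicer iKO (7.37%) and 2 of 10 in Dgcr8 iKO (13.4%), and 0 were called lower. H2afx and H2afz, which encode variants of H2A, gave 2.13 ± 0.15 (adjusted p = 1.44e-07) and 1.44 ± 0.11 (adjusted p = 3.06e-07) against uncrushed nerves. H3f3b, a source of the replacement histone H3.3, was at 129 ± 13.9 CPM in crushed against 114 ± 6.56 in uncrushed nerves (0.27 ± 0.10, adjusted p = 0.0317), and H1f0, the linker histone of resting cells, at 51.6 ± 7.86 against 71.1 ± 2.54 CPM (-0.36 ± 0.11, adjusted p = 0.0104). In Dicer iKO, H3f3b gave -0.46 ± 0.10 (adjusted p = 0.0205), also under 2-fold.

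**Figure D5:**
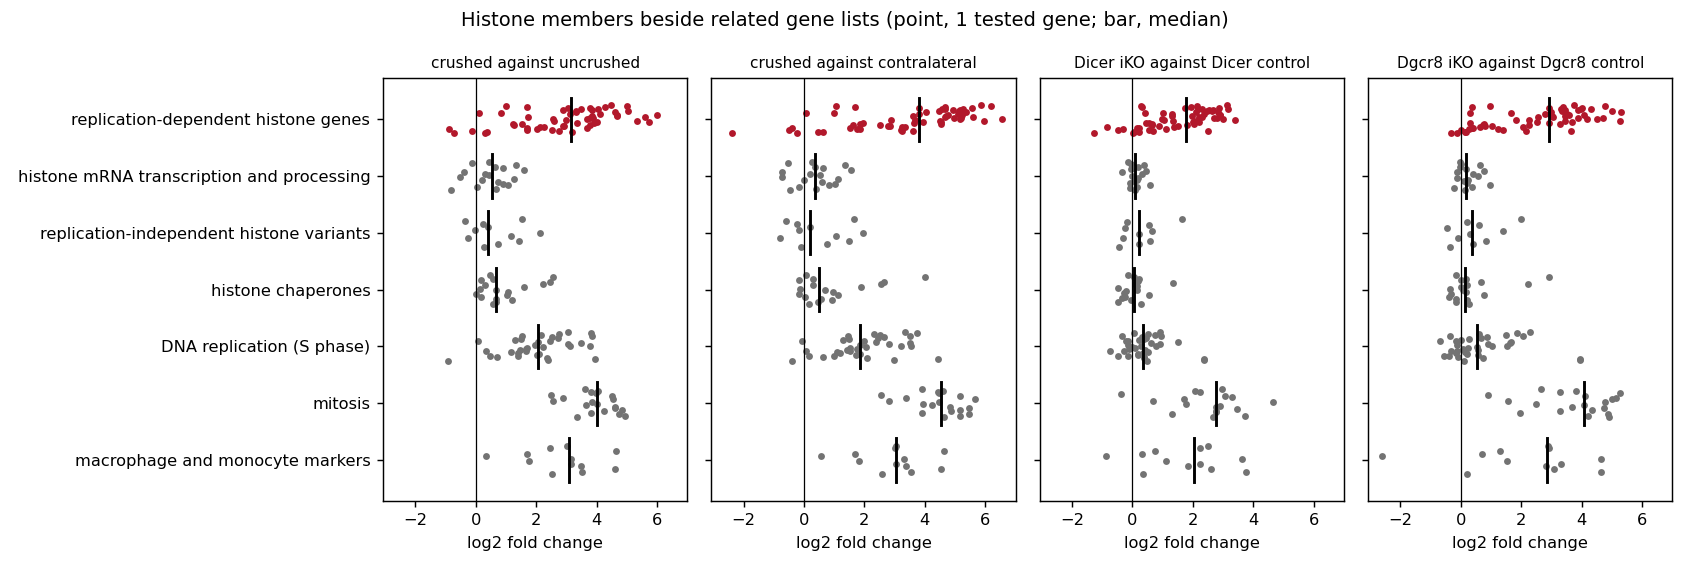
Log2 fold change of the tested genes of each list in 4 comparisons, with the replication-dependent histone genes in red on top. The vertical bar is the list's median, and Hist1h2ah is left out where its reference libraries were all at 0. The histone genes (medians 3.17, 3.81, 1.78 and 2.94) have medians below those of the mitosis genes (4.01, 4.53, 2.77 and 4.10) and above those of the histone processing genes, variants and chaperones in all 4, with overlapping ranges. Histone genes near 0 in the reference raise these medians. Over those with a mean of at least 10 reference counts they are 2.27, 1.85, 1.05 and 2.25, and the other lists were not limited in this way.

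Markers of the cell types in the nerve were read in the same comparisons, beside the shares of all genes tested. Called higher were 15.3% of all genes against uncrushed nerves, 14.6% against contralateral nerves, 7.37% in Dicer iKO and 13.4% in Dgcr8 iKO. Called lower were 21.1%, 13.6%, 1.64% and 6.99% in turn. Macrophage and monocyte markers were called higher for 11 of 12 genes in both crush comparisons, 7 of 12 in Dicer iKO and 9 of 12 in Dgcr8 iKO, where 1 was lower. Their summed level was 920 to 1971 CPM in crushed, 203 to 236 in uncrushed and 138 to 256 in contralateral libraries, 3848 to 6787 in Dicer iKO against 398 to 1229 in controls, and 2494 to 5899 in Dgcr8 iKO against 402 to 479. None of the 12 was at 0 in any group. Of Schwann cell genes, Prx, which encodes a protein of myelinating cells, was called lower in both crush comparisons (log2 fold change -5.35 ± 0.20 and -5.65 ± 0.19, adjusted p = 5.76e-10 and 4.9e-12) and in Dgcr8 iKO (-1.08 ± 0.28, adjusted p = 0.00875), and gave -0.89 ± 0.23 (adjusted p = 0.0298) in Dicer iKO. Ngfr, a gene of immature and repair Schwann cells, was called higher in all 4. Prx and Ngfr were named after their values were seen, and they do not stand for the list of Schwann cell markers. Fibroblast markers were called higher for 1 of 6 genes in each crush comparison, near the share of all genes, and for 4 of 6 in each knockout. Endothelial markers were called higher for 2 of 5 after crush and lower for 1 of 5 in Dgcr8 iKO. Of 9 lymphocyte markers 4 were tested against uncrushed nerves (3 lower), 2 against contralateral nerves (0 called), 1 in Dicer iKO (higher) and 4 in Dgcr8 iKO (3 higher), and Cd3e and Cd3g were at 0 in all Dgcr8 controls. Of 7 neutrophil markers at most 3 were tested, with 1 or 2 called higher in each comparison and 1 lower against uncrushed nerves and in Dgcr8 iKO. Between contralateral and uncrushed nerves no gene of these lists was called. The part of these cell types in the change of the histone genes was not tested.

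Shared sequence limits how far single copies can be told apart. Over the 65 genes a median of 62.9% of 100-base transcript windows occurred in no other annotated transcript. For 7 genes this was 100%, and for 25 it was under 50%, among them 11 H2A, 6 H3, 5 H2B and 3 H4 genes and no H1 gene. Genes with mostly unique sequence were called as well. Of the 40 genes with at least 50% unique windows, 36 were tested against uncrushed nerves and 29 called higher (median 2.90), and of the 25 others 21 were tested and 20 called (median 3.84). The same counts were 21 of 37 and 15 of 21 in Dicer iKO, and 24 of 37 and 19 of 22 in Dgcr8 iKO. Sums over a class, in which a shift of reads between copies of that class cancels, were higher in every crushed and every iKO library for all 5 classes.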

How the data were processed

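Per the study's methods, the authors trimmed paired reads of 125 bases with Trimmomatic, aligned them to Ensembl GRCm38 with STAR and estimated transcript abundance with RSEM; the annotation release is not given in the sources used here. The deposited tables give, per transcript, an expected count and a TPM value. Labels name a SMARTer stranded pico total RNA kit for the crush libraries and a TruSeq stranded kit with Ribo-Zero for the knockout libraries, while the study's methods name TruSeq for both. Samples were grouped by their titles and labels. Libraries of a group came from separate mice; contralateral nerves were the other side of injured mice, per the study's methods, but which libraries share a mouse is not given in the sources used here, so the main fit has no pairing.

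For each gene, the expected counts of its transcripts were added and rounded to whole numbers. Genes were filtered with filterByExpr (minimum count 10), scaled by TMM and tested per comparison with edgeR's quasi-likelihood test on all genes (edgeR 4.0.16, R 4.3.3; DESeq2 1.42.0 as an alternative; figures with matplotlib 3.10.9), adjusted by Benjamini-Hochberg over all genes tested; a call needed 2-fold and adjusted p of at most 0.05. The knockouts were compared by an interaction term. Standard errors are the log2 fold change over the root of F. Class sums replaced the members in the same table. CPM are TMM-scaled over an experiment; intervals of counts cover counting error only. A gene at 0 was given a limit of 3 counts per library on the same TMM scale, 0.236 to 0.511 CPM in crush and 0.286 to 0.518 CPM in knockout libraries. On simulated data (200 genes changed 4-fold) the test recovered 95.5% of the changed genes for crushed against uncrushed nerves (16988 genes), 95.9% for Dicer iKO (12916 genes) and 77.3% for the interaction (13403 genes). False calls numbered 4, 11 and 7 in turn. The changed genes were drawn at random from all genes. The recovery therefore does not hold for smaller changes, such as the median interaction of 0.89 over the histone genes, or for these genes as a set.

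The transcripts Hist1h2bq-201 and Hist1h2br-202 carry other gene identifiers in the tables and were left out of the main sums. The members and all lists were chosen with earlier results of these data known. Named genes were, by rule, the 4 members of each class with the highest mean CPM per experiment, the 3 highest and 3 lowest called members per comparison with mean log2 CPM of at least 1, those called against the majority, up to 6 abundant members not called after crush, and the 3 most abundant genes of each related list with 9 chosen by name; Hist1h1t, Hist1h2ai and genes listed as untested were named outside this rule, after their values were seen. Alternatives covered RLE scaling, filters, DESeq2, the exact test, a replicate block, a joint fit, protein-coding genes only and leaving out each library. One gene of the Schwann cell marker list is not reported here, and no sum or count over that list is given; Prx and Ngfr were named from it after their values were seen.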

Additional observations from a re-analysis of the deposited data

Results flagged for a closer look

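In the groups of 4 libraries, 84 levels of single genes and class sums were examined for 1 library standing apart, and 8 did by Dixon's criterion for groups of 4, where chance gives about 1 in 20. Crushed 2 stood above the other crushed libraries in 5 of them: Hist1h1a was at 34.1 CPM there and 22.8 to 24.1 CPM in the others, Hist1h3h at 8.31 CPM and 5.70 to 6.13 CPM, Hist1h4d at 34.1 CPM and 24.6 to 26.02 CPM, Hist2h2bb at 49.6 CPM and 36.3 to 38.2 CPM, and summed H3 at 115.5 CPM and 87.8 to 90.6 CPM. Hist1h2bg was at 3.02 CPM in crushed 4, below the 8.25 to 9.07 CPM of the others. In contralateral nerves, Hist4h4 was at 14.1 CPM in replicate 2 and 22.4 to 22.9 CPM in the others, and Hist1h3g at 0.201 CPM in replicate 3 and 0 in the others.

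Hist1h2al, annotated as a pseudogene and so no member, had a mean of 13.02 CPM by total count in Dicer iKO, above the 0 to 9.16 CPM of the Dicer controls. Its counts in Dicer control 1, 2 and 3 were 0, 0 and 71. Hist1h2al shares sequence with Hist2h2aa1, Hist2h2aa2 and Hist2h2ac, so its level depends on how shared reads were divided.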

How the results depend on the processing

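Of 224 values of the counts of calls and of the summed level under alternatives, 199 kept their direction and stayed within the main value's spread or, for counts, within 1.5 times of it. Requiring 10 counts in every library removed genes near 0 in the reference and left 15, 14, 17 and 23 called higher against uncrushed, against contralateral, in Dicer iKO and in Dgcr8 iKO, and 0 lower against contralateral nerves. Fewer histone genes were left to test under this filter. Its counts, and those of the other settings in this section, are given without the share of all genes. They describe how the counts moved and are not read as results about the histone genes. Without a filter 1, 2 and 3 were called lower in crushed against uncrushed, crushed against contralateral and contralateral against uncrushed nerves; a joint fit called 2 lower in the first and the exact test 2 in the last. Summed TPM gave 3.00 and 2.65 for crushed nerves and turned contralateral against uncrushed to 0.35, and CPM by total count gave -0.13 there. The cause was not tested.

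Replicate numbers are not stated to mark a mouse, and correlations of same-numbered libraries ran from -0.20 to 0.23. A replicate block left 22 higher and 0 lower in Dicer iKO and changed no other count by over 1.5 times; between crushed and contralateral nerves it gave 51 higher and 1 lower.

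Leaving out 1 library gave 49 to 50 higher, 0 to 1 lower and a summed log2 fold change of 1.73 to 1.97 against uncrushed nerves; 49 to 51, 1 to 2 and 1.93 to 2.03 against contralateral nerves; 0, 0 and -0.29 to -0.14 between uninjured nerves; 21 to 39, 0 to 1 and 0.61 to 0.79 in Dicer iKO; 41 to 45, 0 and 0.96 to 1.44 in Dgcr8 iKO; and 0 to 4 for the difference of the knockouts. Among the named genes no call reversed, and 28 of 517 values lost a call in Dicer iKO, against 0 of 543, 9 of 593 and 5 of 532 in crushed against uncrushed, crushed against contralateral and Dgcr8 iKO. Adding the 2 transcripts listed under other gene identifiers, chosen after seeing the data, gave 50, 52, 37 and 44 higher. Genes under 3 counts in a library could not be resolved at this depth.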

Other observations

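Hist1h4m, an H4 gene, had 0 counts in all 6 libraries of the Dgcr8 line, controls and iKO, and 4.86 to 42.5 CPM in the 6 libraries of the Dicer line. Its near copy Hist1h4n was at 17.5 to 138.7 CPM in the Dgcr8 line. The sum of both was 17.5 to 24.6 CPM in Dgcr8 controls and 46.5 to 138.7 CPM in Dgcr8 iKO, and 15.1 to 26.9 CPM in Dicer controls and 49.7 to 78.9 CPM in Dicer iKO.

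The near-identical Hist2h2aa1 and Hist2h2aa2 exchanged places between the experiments: Hist2h2aa1 was at 53.8 to 197 CPM in crush libraries and 0 to 9.48 CPM in knockout libraries, and Hist2h2aa2 at 11.002 to 53.1 and 101.5 to 190.0 CPM.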
